A study of Mus musculus with 27 samples.

Results

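The genes described here are 7 mural and smooth muscle genes, Acta2, Tagln, Myh11, Cnn1, Rgs5, Cspg4 and Des. They were chosen by symbol from the 30153 entries of a normalized count table, and each symbol matched 1 entry. Mural cells wrap blood vessels: smooth muscle cells surround arteries and veins and contract to set vessel width, and pericytes sit on capillaries. Contractile smooth muscle is known for smooth muscle actin, myosin heavy chain and their binding proteins, while pericytes are known for surface and signaling proteins such as NG2 and Rgs5. None of these genes is made by mural cells alone. Des also builds the cytoskeleton of skeletal muscle fibers, and Cspg4 is also made by cartilage and other progenitor cells.

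The cells came from the hindlimbs of Prx1-CreER mice carrying the Ai14 tdTomato reporter on a Rag1 background, male and female, 8 to 12 weeks old, 3 days after tamoxifen. In these mice the Prx1 promoter drives the inducible Cre, so the label marks Prx1 cells and their progeny. Cells without CD45 were sorted from skeletal muscle, periosteum and bone marrow by 2 surface proteins. P1 cells lacked CD105 and carried CD200, P2 cells lacked both, and P3 cells carried CD105 with any level of CD200, which gave 9 groups of 3 replicates and 27 libraries. All groups therefore share the reporter, the tamoxifen and the sort for Prx1+ CD45- cells. Muscle and periosteum were digested and bone marrow was flushed. The samples are described as coming from the same animals, but which animal gave which library is not stated, so p-values measure the spread between libraries only.

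Library totals ranged from 8631881 to 26230908 normalized counts, and 12396 to 21675 entries were above 0. The sorting markers followed the gates in most groups: Eng, which encodes CD105, was 4523 to 6067 in muscle P3 against 178 to 382 in muscle P1, and Cd200 was 10.3, 69.5 and 1107 in muscle P2, where the highest library overlapped the P1 range of 1025 to 3274. Prrx1, the gene of Prx1, was 69.0 to 170 in bone marrow P2 against 1675 to 2413 in bone marrow P1. In periosteum P2 it was 64.0, 302 and 2377. Ptprc, which encodes CD45, was 312 to 829 in bone marrow P2 and 61.8 to 252 in bone marrow P1. The leukocyte sum of bone marrow P2 was 31136 to 191468. Genes of other cell types differed strongly between groups. The sum over 30 myofiber genes was 3493670 to 3967967 in muscle P2 against 37599 to 74915 in P1, and the sum over 18 endothelial genes was 65389 to 95908 in muscle P3 against 7603 to 19417 in P1. Periosteum P2 had an erythroid sum of 3459681 to 9566399, and that of bone marrow P2 was 8071673 to 12832253. In bulk libraries of sorted cells, fewer cells of a type and less RNA per cell cannot be told apart.

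Promoter sequences are shown for Acta2 and Rgs5 because these members had the highest levels in different subpopulations of muscle. RefSeq sequence on GRCm38.p6 was matched for 5 of the 7 members, Acta2, Rgs5, Cnn1, Cspg4 and Des. Each window ran from 250 bases before the RefSeq start of the gene to 50 after it. Gene positions given below are from GENCODE and can have another start. That of Acta2, 34255590, lies within its window, so distances hold for the RefSeq start only. It was searched on both strands for the CArG box, the site bound by serum response factor, and for MCAT (CATTCC, or GGAATG on the other strand), the site bound by TEAD factors. The 250 bases before the start are printed 5′ to 3′ for Acta2 (chr19:34255374-34255623, minus strand) and Rgs5 (chr1:169655251-169655500, plus strand), with motif matches in capitals.
Acta2: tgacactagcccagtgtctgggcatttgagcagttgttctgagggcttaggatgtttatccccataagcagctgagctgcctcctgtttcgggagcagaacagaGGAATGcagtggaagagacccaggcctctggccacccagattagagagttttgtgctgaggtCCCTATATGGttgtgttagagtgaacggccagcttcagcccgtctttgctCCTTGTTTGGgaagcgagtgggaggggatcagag
Rgs5: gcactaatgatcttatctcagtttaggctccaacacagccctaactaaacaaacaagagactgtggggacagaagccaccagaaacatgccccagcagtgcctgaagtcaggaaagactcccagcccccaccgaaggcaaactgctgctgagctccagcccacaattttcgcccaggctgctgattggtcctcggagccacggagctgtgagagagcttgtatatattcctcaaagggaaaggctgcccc

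In the Acta2 window, 2 CArG boxes with 1 mismatch in the core began 84 and 34 bases before the start, and 1 MCAT began 146 bases before it. The windows of Rgs5, Cnn1, Cspg4 and Des held neither motif under the same search, which says only that these letters were not in these windows. Of 32817 RefSeq promoter windows of the same length, 9.99% held a CArG box with at most 1 mismatch and 14.7% held MCAT. No window of the 5 members held a CArG box without mismatch, which 1.63% of all windows did. A match is a description of the letters and not of binding.

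Muscle P1 cells held the highest level of the 4 contractile members. Acta2 (ENSMUSG00000035783, chromosome 19, 34241090 to 34255590 on GRCm38), the actin of smooth muscle, was 24056, 54709 and 60522 in the muscle P1 libraries and 8305, 10888 and 10936 in muscle P3. It was 75.2, 902 and 1059 in muscle P2. The 3 muscle groups did not overlap, in the order P1, P3 and P2. In periosteum, Acta2 was 1401, 1475 and 3195 in P1 and 1619, 2316 and 2622 in P3, which overlapped, and 13.4, 27.6 and 124 in P2. Bone marrow libraries were all below 100, with 0, 15.2 and 59.7 in P1, 19.2, 53.1 and 98.7 in P2, and 0.937, 4.77 and 19.9 in P3. Acta2 was thus spread over more than 3 orders of magnitude, and between neighbors in its order of 9 groups only muscle P2 and bone marrow P2 differed past the thresholds of a DEG, by a log2 fold change of 3.13 (limma, adjusted p = 0.0364), where 14.1% of genes were higher DEGs, although their libraries overlapped.

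Tagln (ENSMUSG00000032085, chromosome 9, 45929619 to 45936058), an actin-binding protein of smooth muscle, was 11887, 26462 and 31031 in muscle P1, 4894, 5274 and 5887 in muscle P3, and 504, 724 and 1852 in muscle P2. The muscle groups again did not overlap and stood in the same order as for Acta2. In periosteum it was 853, 991 and 1082 in P1, 504, 1271 and 1729 in P3, and 0, 3.45 and 90.8 in P2, and no bone marrow library was above 58.9. Exons of Tagln share 108 bases with Pcsk7 on the other strand, and the library kit does not mark strand. The mean of Pcsk7 over all libraries was 65.3. Group means of Tagln were 31.4 in periosteum P2 and 21.6, 28.2 and 19.6 in bone marrow P1, P2 and P3. The part of Pcsk7 reads in the Tagln values was not tested. Another 1241 exon bases are shared with Gm48529 on the other strand, whose reads cannot be told apart from those of Tagln.

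Myh11 (ENSMUSG00000018830, chromosome 16, 14194535 to 14291372), the myosin heavy chain of smooth muscle, was 5540, 13472 and 13604 in muscle P1, 2193, 2201 and 2878 in muscle P3, and 40.3, 265 and 312 in muscle P2. It was 253, 339 and 914 in periosteum P1 and 0, 109 and 605 in periosteum P3. Periosteum P1 and P3 overlapped, and all 3 bone marrow P1 libraries listed Myh11 at 0. In the other bone marrow groups and in periosteum P2 at least 1 library listed it at 0, and the highest value there was 58.1. Cnn1 (ENSMUSG00000001349, chromosome 9, 22099216 to 22109630), calponin, which binds actin in differentiated smooth muscle, was 556, 1195 and 1507 in muscle P1 and 103, 114 and 125 in muscle P3. Muscle was the only tissue with a Cnn1 signal in every P1 and P3 library: 12 of the 27 libraries listed it at 0, 2 of them from muscle P2, whose last library held 15.0, and the highest value outside muscle was 85.4.

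Rgs5 (ENSMUSG00000026678, chromosome 1, 169655501 to 169695813), a regulator of G protein signaling and a pericyte marker, had another order. It was 5426, 6941 and 8046 in muscle P3 and 1209, 2017 and 2332 in muscle P1, so that every P3 library was above every P1 library. Muscle P2 held 9.44, 233 and 961. In periosteum, Rgs5 was 652, 1298 and 1417 in P3 and 217, 268 and 850 in P1, which overlapped, and 0, 3.40 and 59.5 in P2. In bone marrow the highest group was P2, with 17.5, 142 and 151, against 0, 3.18 and 3.31 in P1 and 4.41, 6.29 and 12.7 in P3.

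Cspg4 (ENSMUSG00000032911, chromosome 9, 56865033 to 56899870), which encodes the proteoglycan NG2, was the member least tied to muscle. Its highest group was periosteum P2, with 1540, 4318 and 5718, where Acta2, Tagln, Myh11, Cnn1 and Rgs5 were each at most 124. Muscle P1 held 1550, 1939 and 2492, periosteum P1 986, 1934 and 1952, and bone marrow P1 760, 1159 and 2987. These 4 groups overlapped and no neighboring pair among them was a DEG. Muscle P3 held 770, 909 and 1262, and periosteum P3 was widely spread at 58.0, 556 and 1953. Cspg4 was low in muscle P2 (0, 181 and 338), bone marrow P2 (0, 8.45 and 21.2) and bone marrow P3 (10.6, 20.8 and 22.3).

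Des (ENSMUSG00000026208, chromosome 1, 75360329 to 75368579), desmin, the intermediate filament of muscle cells, was 55572, 69203 and 134168 in muscle P2, 3664, 4656 and 6955 in muscle P1, and 680, 835 and 966 in muscle P3. The muscle groups did not overlap. Bone marrow P1 held 237, 284 and 520, and bone marrow P3 held 87.2, 127 and 330. Periosteum libraries reached at most 354, with 1 P1 library at 0.648. Des shares 220 exon bases with Gm15179 on the other strand.

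**Figure D1:**
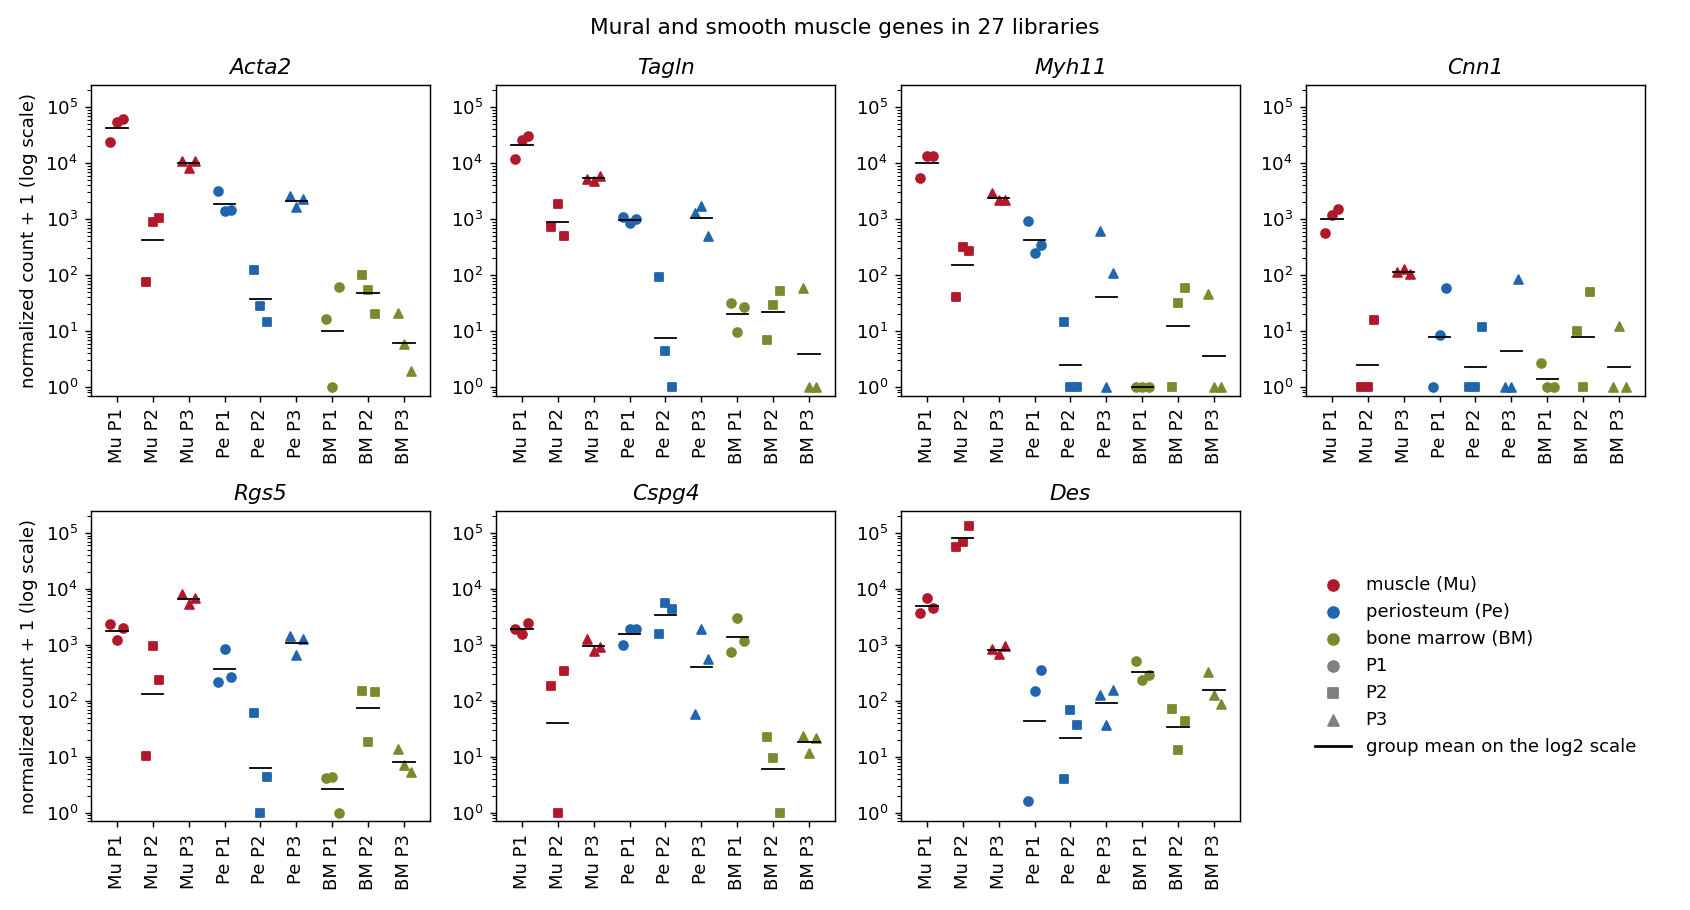
Normalized count plus 1 (log axis) of each member in every library, by tissue (Mu, muscle; Pe, periosteum; BM, bone marrow) and subpopulation, with black lines at the group mean on the log2 scale (n = 3). The 3 muscle P1 libraries hold the highest values of Acta2, Tagln, Myh11 and Cnn1, muscle P3 those of Rgs5, muscle P2 those of Des, and 2 periosteum P2 libraries those of Cspg4.

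Levels can be set between genes only per length. Per kilobase of exon, the mean of muscle P1 was 21143 for Acta2 and 11633 for Tagln, then 1431 for Myh11, 1356 for Des, 408 for Rgs5, 397 for Cnn1 and 167 for Cspg4. In muscle P3 the order was 4573 for Acta2, 2692 for Tagln and 1497 for Rgs5, with Myh11 at 319, Des at 220, Cspg4 at 82.1 and Cnn1 at 41.7. Smooth muscle actin was thus the most abundant member in both, and Rgs5 was below Myh11 in P1 and above it in P3.

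A gene was called a DEG where its log2 fold change was above 1.5 or below -1.5 and its adjusted p was below 0.05, by limma across all 18442 entries tested, with 1 spread shared by the 9 groups. All 7 members passed the filter on low values. In muscle, P2 was lower than P1 in 5 of 7 members, where 3.59% of all genes tested were lower DEGs. The log2 fold changes were -6.69 for Acta2 (SE 1.18, adjusted p = 0.000484) and -8.63 for Cnn1 (SE 1.74, adjusted p = 0.00182). They were -6.06 for Myh11 (adjusted p = 0.0379), -5.63 for Cspg4 (adjusted p = 0.0164) and -4.60 for Tagln (adjusted p = 0.0301). Rgs5 differed by -3.75 (adjusted p = 0.0870) and Des by 4.03 (adjusted p = 0.0527), and neither was a DEG. The myofiber list moved with this comparison, with 24 of 30 genes higher in P2, where 4.62% of all genes were, and none lower, and its part in the differences of the members was not tested. The skeletal actin Acta1, whose coding sequence is nearly that of Acta2, averaged 1144027 in muscle P2, of which the Acta2 mean was 0.0593%, so the Acta2 level of muscle P2 is uncertain.

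The counts of muscle P2 against P1 depended on single libraries. Of the 5 members, 2 were DEGs without P1 replicate 1 or 3, and 3 without P1 replicate 2 or P2 replicate 1 or 3. Acta2 and Cnn1 remained DEGs whichever library was left out, while Myh11 lost its call without any 1 of the 6 and Tagln without any but P2 replicate 2. Cspg4 lost it without P1 replicate 1 or 3, and without P2 replicate 2, where its log2 fold change was -2.98. That last refit had 4 DEGs among the 7 members.

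Between muscle P3 and P1, no member was a DEG in the fit over all groups, where 0.466% of genes were DEGs. At an unadjusted p below 0.05 there were also 0 of 7. The log2 fold change was -2.11 for Acta2 (SE 1.18, adjusted p = 0.994) and 1.91 for Rgs5 (SE 1.34, adjusted p = 1). The spread in that fit is shared with groups such as muscle P2 and periosteum P2, where single members differed more between replicates, as Rgs5 did from 9.44 to 961 in muscle P2. When the 6 libraries of muscle P1 and P3 were fitted alone, with 4.15% of genes as DEGs, 6 of 7 members passed. Rgs5 was higher in P3 by 1.91 (SE 0.29, adjusted p = 0.0248). Lower in P3 were Acta2 by -2.11 (SE 0.38, adjusted p = 0.0399), Tagln by -2.0 (adjusted p = 0.0435), Myh11 by -2.06 (adjusted p = 0.0429), Cnn1 by -3.13 (adjusted p = 0.0149) and Des by -2.58 (adjusted p = 0.0102). Cspg4 differed by -1.03 (adjusted p = 0.0850). The myofiber sum moved with Des, from 37599 to 74915 in P1 to 2614 to 5554 in P3, with a list median of -3.50, and its part in the Des value was not tested. The call between these groups therefore rested on which libraries set the spread.

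Muscle P3 against P2 had 5 DEGs among the members, 4 higher and 1 lower, where 11.2% of genes were DEGs. P3 was higher in Rgs5 by 5.66 on the log2 scale (SE 1.34, adjusted p = 0.00573), Acta2 by 4.58 (adjusted p = 0.0105), Cnn1 by 5.51 (adjusted p = 0.0379) and Cspg4 by 4.60 (adjusted p = 0.0431). Des was lower in P3 by -6.61 (SE 1.30, adjusted p = 0.00104), beside 29 of 30 myofiber genes that were lower, where 5.55% of all genes were. Des kept its call whichever library was left out. Acta2 and Rgs5 lost it without muscle P2 replicate 1. Cnn1 lost it in every refit but the one without P2 replicate 3, and Cspg4 lost it without P2 replicate 2, where its log2 fold change was 1.95, and without any 1 of the P3 replicates. The count was 2 to 3 without P2 replicate 1 or 2 or any P3 replicate.

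**Figure D2:**
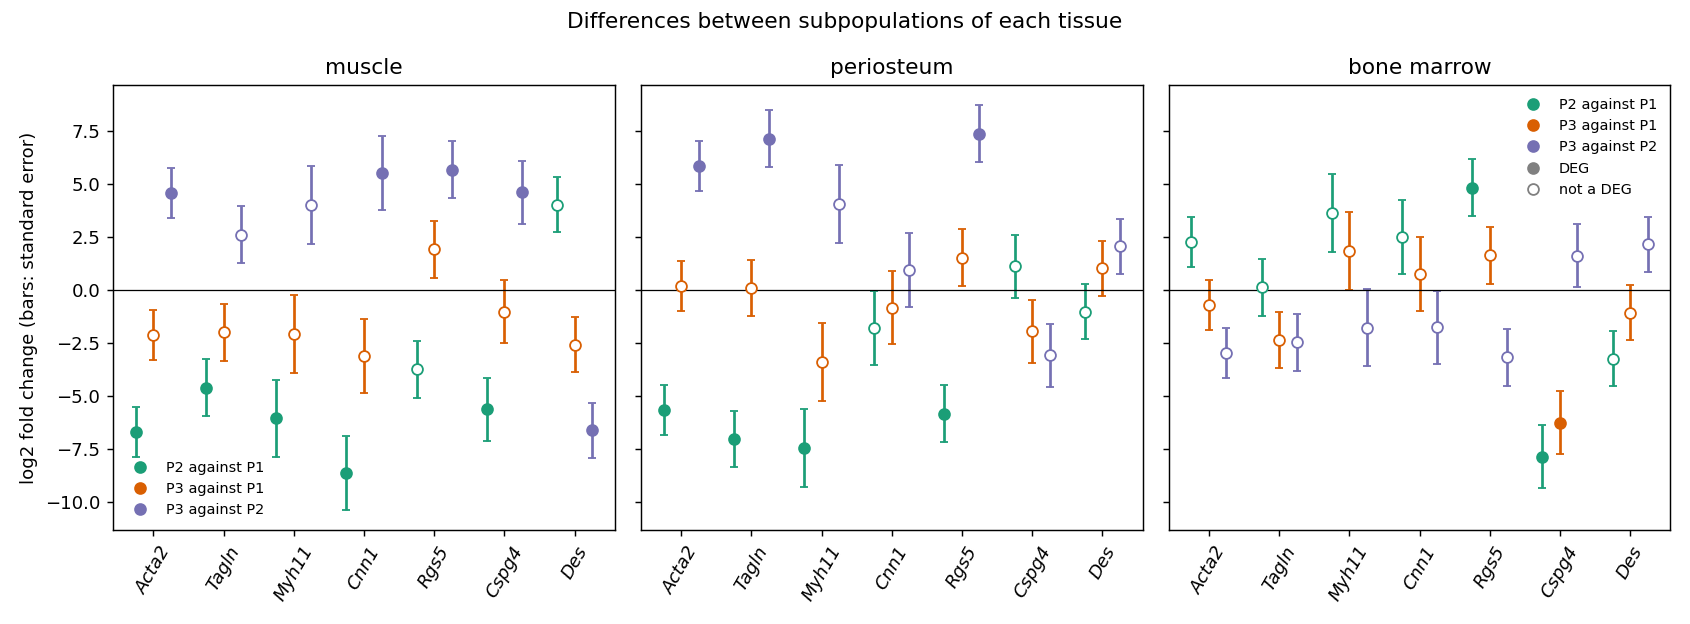
Log2 fold change of each member between subpopulations within muscle, periosteum and bone marrow, with bars for the standard error from limma over 27 libraries. Filled points are DEGs and open points are not. Acta2, Tagln and Myh11 lie below 0 for P2 against P1 in both muscle and periosteum, while Cspg4 lies at -5.63 in muscle and 1.12 in periosteum.

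In periosteum, 4 of 7 members were lower in P2 than in P1, where 10.1% of genes were lower DEGs. They were Tagln by -7.03 on the log2 scale (SE 1.34, adjusted p = 0.000617), Acta2 by -5.66 (SE 1.18, adjusted p = 0.00144), Rgs5 by -5.84 (adjusted p = 0.00356) and Myh11 by -7.46 (adjusted p = 0.00585). Every P1 library was above every P2 library for these 4 genes, which were picked as DEGs of the same libraries. The share of all genes without overlap was not counted. Cspg4 differed by 1.12 (SE 1.49, adjusted p = 0.648). The erythroid sum of periosteum P2 stood beside 15503 to 47920 in P1, and its part in these differences was not tested. With periosteum P1 and P2 fitted alone, none of the 7 members was a DEG, where 0.564% of genes were.

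Periosteum P3 against P1 had no member as a DEG, where 4.18% of genes were DEGs, and 0 of 7 at an unadjusted p below 0.05. Acta2 differed by 0.19 (SE 1.18) and Tagln by 0.09 (SE 1.34), both less than 1 SE. Rgs5 differed by 1.53 (SE 1.34, adjusted p = 0.617). In the same libraries 15 of 18 endothelial genes were higher in P3, where 2.79% of all genes were, and their sum was 36467 to 67558 against 905 to 2153 in P1. Against P2, periosteum P3 was higher in Rgs5 by 7.37 (adjusted p = 0.000552), Tagln by 7.12 (adjusted p = 0.000746) and Acta2 by 5.85 (adjusted p = 0.00142), 3 of 7 members where 9.33% of genes were higher DEGs. Fitted alone, those 2 groups gave no member, and 0.0108% of genes.

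In bone marrow most members were near 0, and the DEGs were Cspg4 and Rgs5. Cspg4 was lower than in P1 both in P2, by -7.86 (SE 1.49, adjusted p = 0.000306), and in P3, by -6.26 (SE 1.49, adjusted p = 0.00850). Rgs5 was higher in P2 than in P1 by 4.81 (SE 1.34, adjusted p = 0.00782). These are 2 of 7 members where 34% of genes were DEGs for P2 against P1, and 1 of 7 where 3.46% were lower DEGs for P3 against P1. Other lists moved with Cspg4. Osteoblast genes were lower in P2 in 10 of 10 and in P3 in 8 of 10, where 10.4% and 3.46% of all genes were. Their sums were 3128072 to 5248389 in P1, 2778 to 23297 in P2 and 47167 to 120419 in P3. The chondrocyte sum was 89571 to 172589 in P1, 280 to 945 in P2 and 506 to 8035 in P3. The part of these lists in the Cspg4 values was not tested. The Cspg4 call of P3 against P1 was lost without bone marrow P1 replicate 2. The bone marrow P2 libraries also had the most entries above 0 of any bone marrow group, 18542 to 21675, and the median gene was 0.61 higher on the log2 scale in P2 than in P1. Bone marrow P3 against P2 had no member as a DEG, where 20% of genes were DEGs, and 2 of 7 had an unadjusted p below 0.05. Without bone marrow P3 replicate 1 that comparison had 2 members as DEGs, and without P2 replicate 2 it had 1.

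Averaged over the 3 subpopulations, muscle was higher than periosteum in 6 of 7 members, where 17.2% of genes were higher DEGs. Over all genes tested, 3.19% were lower DEGs and the median log2 fold change was 0.56. The log2 fold changes were 7.27 for Des (SE 0.75, adjusted p = 2.09e-07), 4.57 for Tagln (SE 0.77, adjusted p = 0.000147) and 3.41 for Acta2 (SE 0.68, adjusted p = 0.000802). Myh11, Cnn1 and Rgs5 were higher by 5.47, 3.94 and 3.10, and Cspg4 differed by -1.60 (SE 0.86, adjusted p = 0.174). Against bone marrow, muscle was higher in 7 of 7, where 10.9% of genes were higher DEGs, from 2.99 for Cspg4 (adjusted p = 0.0105) to 8.62 for Acta2 (SE 0.68, adjusted p = 6.89e-10) among the other 6 members. The fitted difference of Myh11, 8.76, was larger still, but it is no fold, since bone marrow P1 listed Myh11 at 0. Periosteum was higher than bone marrow in 5 of 7, where 4.01% of genes were higher DEGs, with 5.21 for Acta2 (adjusted p = 4.44e-06) and 4.59 for Cspg4 (adjusted p = 0.000365), but not in Cnn1 or Des. Lists of other cell types moved with tissue too: muscle was higher than periosteum, and higher than bone marrow, in 30 of 30 myofiber genes and 16 of 18 endothelial genes, periosteum was higher than either in 10 of 10 chondrocyte genes, and their part in the differences of the members was not tested. These comparisons share libraries, and tissue cannot be told apart from how the cells of each tissue were released.

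Within single subpopulations the tissues were compared as follows, and the difference between subpopulations was tested only as the CD105+ effect described next. Between the P1 groups of muscle and periosteum, Acta2 (4.52, adjusted p = 0.0235), Cnn1 (6.99, adjusted p = 0.0174) and Des (6.79, adjusted p = 0.00230) were DEGs, 3 of 7 where 4.34% of genes were higher DEGs. Between the P3 groups of muscle and periosteum no member was a DEG, where 3.5% of genes were DEGs, and 3 of 7 had an unadjusted p below 0.05. The values ran from 1.26 for Cspg4 to 5.89 for Myh11 (adjusted p = 0.0700). Between the P2 groups, Des was higher in muscle by 11.84 (adjusted p = 4.61e-07) and Cspg4 was lower by -6.41 (SE 1.49, adjusted p = 0.00226), with Acta2, Tagln, Myh11 and Rgs5 higher, 6 of 7 where 28% of genes were DEGs. Periosteum P2 also exceeded bone marrow P2 in Cspg4, by 9.15 (adjusted p = 7.89e-05), the only member called there, where 4.65% of genes were higher DEGs.

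Whether the CD105+ effect, the mean of P3 less the average of P1 and P2, differed between tissues was tested directly. It differed in 1 of 7 members between muscle and periosteum, where 1.9% of genes passed an adjusted p of 0.05: Des, by -6.14 (SE 1.59, adjusted p = 0.0454). That call was lost on leaving out any 1 of the 9 muscle libraries or periosteum P3 replicate 1 or 3. No member passed for muscle less bone marrow, where 5.06% of genes passed an adjusted p of 0.05. At an unadjusted p below 0.05 there were 4 of 7 members. The share of all genes at an unadjusted p was not counted, here or in the other comparisons. No member passed for periosteum less bone marrow, where 0.575% of genes passed an adjusted p of 0.05, and 3 of 7 had an unadjusted p below 0.05. Tagln had the largest value there, 6.03 (SE 1.64, adjusted p = 0.0930). In that comparison 1 or 2 members passed without bone marrow P3 replicate 1, bone marrow P1 replicate 2 or periosteum P2 replicate 1.

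Ratios between members within a library do not depend on how libraries are scaled, and these ratios were chosen after the values were seen. Per kilobase, Tagln was 0.534 to 0.566 of Acta2 in muscle P1 and 0.535 to 0.651 in muscle P3. Myh11 was 0.0650 to 0.0712 of Acta2 in muscle P1 and 0.0580 to 0.0766 in P3. These ranges overlapped, although Acta2 itself did not overlap between the groups. Rgs5 was 0.0107 to 0.0468 of Acta2 in muscle P1 and 0.307 to 0.357 in P3, a 16.2-fold difference of the mean log ratio without overlap. Both genes separated these groups in opposite orders, so their ratio had to separate as well. The exact permutation test (two-sided, p = 0.1) therefore adds nothing here, and 3 against 3 libraries cannot give a lower p. Cnn1 was 0.0175 to 0.0200 of Acta2 in muscle P1 and 0.00755 to 0.0121 in P3. In periosteum the Rgs5 ratio was 0.0328 to 0.293 in P1 and 0.195 to 0.271 in P3, which overlapped (exact permutation test, p = 0.4).

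**Figure D3:**
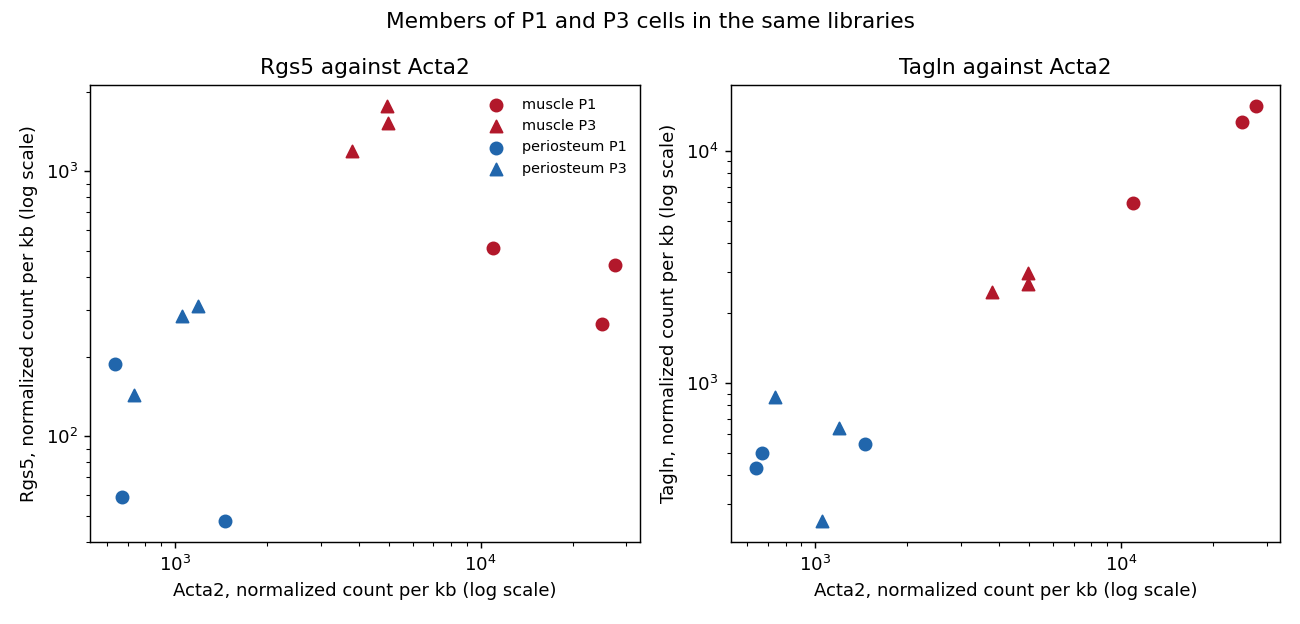
Normalized count per kilobase of Rgs5 (left) and Tagln (right) against Acta2 in each P1 and P3 library of muscle and periosteum, on log axes. Tagln follows Acta2 along 1 line in muscle, at 0.534 to 0.651 of it, while muscle P3 libraries lie above muscle P1 libraries for Rgs5 at lower Acta2.

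Across all 27 libraries on the log2 scale, Acta2, Tagln, Myh11 and Rgs5 went together, with Pearson's r from 0.822 to 0.927. Cnn1 reached 0.561 to 0.668 with these 4 genes. Cspg4 stood apart, with r between -0.054 and 0.326 with the other 6 members, and Des had 0.262 to 0.451 with the others except Cspg4. These libraries share groups and tissues, so the coefficients describe the pattern and are given without a test.

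The members also varied with summed lists of other cell types, of which 7 were set beside each member. Among these, Acta2 and Tagln had their highest r with fibroblast genes, 0.653 and 0.709, and Rgs5 with endothelial genes, 0.673, whose sums in muscle P3 and P1 are given above. With the pericyte list described below, r was 0.734 for Acta2, 0.795 for Tagln and 0.634 for Rgs5. With the contractile list described below, r was 0.597, 0.719 and 0.450 in the same order. Des had r = 0.772 with the summed myofiber list over the 27 libraries and 0.794 with the contractile list. The gene most similar to Des was Actn3, an alpha-actinin of fast fibers (r = 0.900). In muscle P2, Des per kilobase was 44.9 to 432 times Acta2, against 0.0450 to 0.0891 in muscle P1. Cspg4 had r = 0.772 with the sum over 10 chondrocyte genes, beside 0.712 with satellite cell, 0.675 with fibroblast and 0.575 with osteoblast genes. The chondrocyte sum was 366229 to 853149 in periosteum P2. That of periosteum P1 was 107069 to 500554, which overlapped that of P2, as Cspg4 did, and none of the 10 chondrocyte genes was a DEG between them. In muscle P1 the chondrocyte sum was 9804 to 24780, and Cspg4 there overlapped that of periosteum P1. The part of these lists in the level of Cspg4 was not tested.

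**Figure D4:**
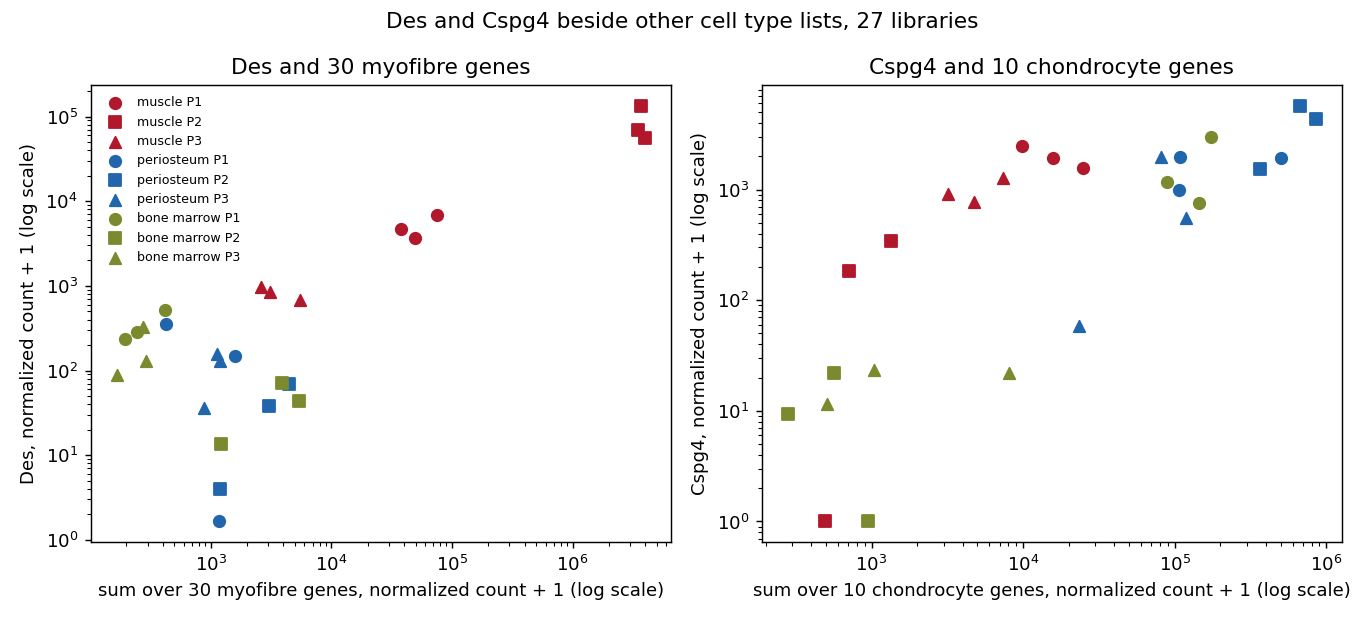
Normalized count plus 1 (log axes) of Des against the sum over 30 myofiber genes (left) and of Cspg4 against the sum over 10 chondrocyte genes (right) in each of 27 libraries, by group. The 3 muscle P2 libraries lie alone at upper right for Des, from 55572 to 134168, and 2 periosteum P2 libraries hold the highest Cspg4.

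The other genes of the contractile apparatus, a list of 34 genes without the members, followed the members only in part. In muscle P2 against P1, 11 were lower and 4 higher, where 3.59% and 4.62% of all genes were, with a median log2 fold change of -2.05 against -0.24 over all genes tested. Rasl12, a Ras-like GTPase, was lower by -6.48 (adjusted p = 0.00456), Ppp1r14a, an inhibitor of myosin phosphatase, by -5.78 (adjusted p = 0.00992), Sncg by -5.10 (adjusted p = 0.0449) and Myl9, the regulatory light chain of smooth muscle myosin, by -4.93 (SE 0.76, adjusted p = 0.000111). Myl9 was 13420 to 35991 in muscle P1, 6511 to 8052 in P3 and 549 to 1124 in P2. Tpm1 and Tpm2, tropomyosins that skeletal fibers also make, went the other way: Tpm1 was 246621 to 330468 in muscle P2 and 7618 to 15780 in P1. In muscle P3 against P1 none was a DEG, where 0.466% of all genes were, with a median of -1.04 against 0.07. The lists were not examined in the fit of those groups alone.

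In periosteum, 10 contractile genes were lower and none higher in P2 than in P1, where 10.1% of all genes were lower, with a median of -1.55 against 0.00 over all genes. Npnt, a matrix ligand, was lower by -7.53 (SE 1.05, adjusted p = 1.68e-05), and Itga8, an integrin subunit that binds it, by -7.22 (adjusted p = 0.000880). P3 was higher than P2 in 11 genes, where 9.33% of all genes were, and lower in none, led by Sncg at 7.31 and Npnt at 7.01. In bone marrow P2 against P1, 10 were lower and 3 higher, where 10.4% and 23.7% of all genes were, with a median of -0.52 against 0.61. Muscle was higher than periosteum in 24, where 17.2% of all genes were, and lower in none (median 2.69 against 0.56), with Casq2 at 7.66, and higher than bone marrow in 27, where 10.9% were (median 3.02 against -0.10), with Pdlim3 at 10.87. Pdlim3, a LIM protein of actin filaments, was at most 0.946 in any bone marrow library and at least 532 in every muscle library. The sum over the contractile list was highest in muscle P2, at 418380 to 485745, where the myofiber sum was 3493670 to 3967967. The part of myofiber transcripts in the tissue differences of this list, Casq2 and Pdlim3 included, was not tested.

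The list of 34 other pericyte genes was higher in muscle P1 and P3 than in P2. In muscle P2 against P1, 11 were lower, where 3.59% of all genes were, and none higher (median -4.12 against -0.24). In P3 against P2, 16 were higher, where 5.61% were, and none lower (median 3.74 against 0.48). In P3 against P1 none was a DEG, where 0.466% of all genes were. The median of 0.09 was near the 0.07 of all genes, where the contractile list stood at -1.04. The sum over the pericyte list was 39128 to 43223 in muscle P1 and 39723 to 42579 in muscle P3, which overlapped, while the contractile sum was 128946 to 234417 in P1 and 98716 to 106542 in P3, which did not. Pdgfrb, the PDGF receptor of pericytes and many fibroblasts, was 3460 to 5295 in muscle P1 and 4540 to 5939 in P3. Steap4, a metalloreductase, was 1690 to 3800 in P1 and 6796 to 7315 in P3. Notch3, the Notch receptor of mural cells, was 2001 to 4271 in P1 and 1045 to 1420 in P3, without overlap.

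Periosteum P3 was higher than P1 in 2 of the 34 pericyte genes, where 2.79% of all genes were. They were Angpt2, a ligand of the Tie2 receptor, by 6.09 (SE 0.96, adjusted p = 0.000268) and Mcam, CD146, by 5.69 (SE 1.10, adjusted p = 0.00270). Endothelial cells also make both. Mcam was 1131, 1200 and 2520 in periosteum P3 and 1.76, 44.9 and 196 in P1. Against P2, periosteum P3 was higher in 11 pericyte genes, where 9.33% of all genes were, with Mcam at 9.33 (adjusted p = 3.45e-06) and Higd1b at 7.18 (adjusted p = 0.00170), and Gja4 was listed at 0 in every P2 library and was 474 to 1171 in P3. Bone marrow P3 was higher than P1 in 2 of the 34 and lower in 2, where 3.14% and 3.46% of all genes were, with a median of -0.59 against 0.00. Abcc9, a subunit of ATP-sensitive potassium channels, was 321, 1319 and 1988 in bone marrow P3 and 1495 to 1867 in muscle P3. In the same bone marrow P3 libraries Acta2 was at most 19.9, Rgs5 at most 12.7 and Cspg4 at most 22.3. Muscle was higher than periosteum in 20 pericyte genes and lower in 1, where 17.2% and 3.19% of all genes were (median 2.41 against 0.56), and higher than bone marrow in 17, where 10.9% were (median 2.01 against -0.10).

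Of 21 regulators of the contractile program, 20 were tested. Myocd, the smooth muscle coactivator of serum response factor, was 115, 183 and 197 in muscle P1, 30.7, 42.6 and 55.2 in P3 and 0, 1.62 and 12.4 in P2, in the order of Acta2. It was lower in muscle P2 than in P1 by -5.62 (SE 1.25, adjusted p = 0.00433), among 5 lower and none higher of 20, where 3.59% of all genes were lower (median -1.37 against -0.24), with Hey2 at -5.75 and Hey1 at -4.75, both targets of Notch. In bone marrow P2, however, Myocd was 30.5, 138 and 309 beside Acta2 of at most 98.7, higher than in bone marrow P1 by 5.16 (adjusted p = 0.00277). Srf itself was 80.5 to 96.1 in muscle P1, 33.8 to 68.1 in P3 and 152 to 378 in P2, so it did not follow the contractile members. Hey1 was 737 to 1094 in muscle P3 and 287 to 378 in P1, without overlap. In periosteum P2 against P1, 5 of 20 regulators were lower, where 10.1% of all genes were, and none higher (median -1.35 against 0.00). Muscle was higher than periosteum in 10, where 17.2% were (median 1.89 against 0.56), and than bone marrow in 7, where 10.9% were (median 1.29 against -0.10).

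**Figure D5:**
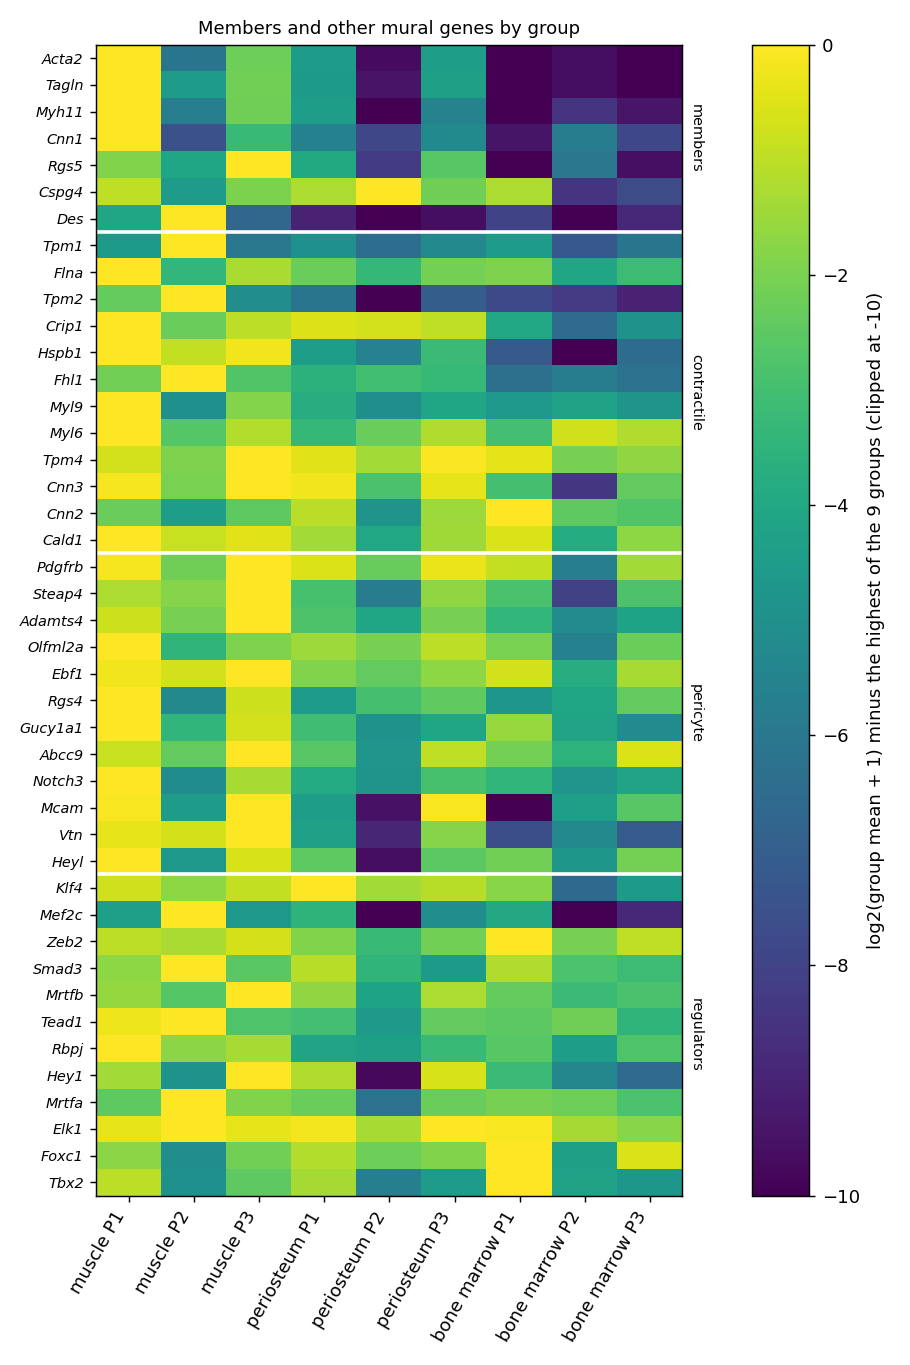
Log2 of the group mean plus 1, less the highest of the 9 groups for each gene, for the 7 members and the 12 genes of highest mean in each of the contractile, pericyte and regulator lists (n = 3 libraries per group; color scale clipped at -10). Members other than Cspg4, Rgs5 and Des are highest in muscle P1, and Tpm1, Tpm2 and Des in muscle P2.

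Over the 27 libraries, the genes outside the members whose log2 profile was most like the mean standardized profile of the 7 members were Tnfaip6, a hyaluronan-binding secreted protein (r = 0.930), and Itga7, a laminin receptor of muscle (r = 0.926). Kera, Sparcl1, C7, Olfr558, Galnt16, Scara5, Tnmd and C1qtnf2 followed, down to r = 0.857. Group means of Itga7 were 930 in muscle P1, 163 in P2 and 251 in P3, against 92.1 and 73.5 in periosteum P1 and P3. Of single members, Myh11 was most like Ppp1r14a (r = 0.907), Tagln most like C1qtnf2 (r = 0.930), and Acta2 most like Tagln (r = 0.927). Cspg4 was most like Pkd1 (r = 0.889), which is no contractile gene, and Cnn1 most like Nrip2 (r = 0.869), with 12 libraries at 0.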

How the data were processed

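The table as deposited holds normalized counts, treated here as signal values. The authors trimmed reads with Trim Galore, aligned them with STAR and normalized counts with DESeq2; the counting tool, genome build and annotation are not given in the sources used here. Steps between low values varied from gene to gene, so reads were not recovered and no counting error is given. Tests used limma 3.58.1 in R 4.3.3 on log2(normalized count + 1), with means for 9 groups, eBayes with a trend, at least 10 in at least 3 libraries (18442 of 30153 entries) and Benjamini-Hochberg adjustment over all of them. Fold changes are on that scale and understate changes of low genes. The fit was run on simulated data to check the direction of calls and the share of false calls. That run was no check of power at this number of replicates. Gene positions and exon lengths came from GENCODE M21 (29811 of 30153 identifiers matched) and promoters from RefSeq. The members, lists and rules were chosen with earlier results of these data known. Named genes were the members, list genes with the highest mean or the largest changes, the most similar genes, and markers. Myl9, Abcc9, Notch3, Srf, Hey1 and Pcsk7 were named after their values were seen. Alternatives were 2 other pseudocounts, filters, scalings, a replicate block, groups alone and each library left out.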

Additional observations from a re-analysis of the deposited data

Results flagged for a closer look

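The CD105+ effect on Des differed between muscle and periosteum by -6.14 on the log2 scale (muscle minus periosteum, limma interaction term, adjusted p = 0.0454). Des averaged 86314 in muscle P2, 5092 in P1 and 827 in P3, and 36.1, 168 and 107 in the same order of periosteum groups. The myofiber sum, which moved with Des in muscle, is given beside the comparisons, and its part in the difference was not tested.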

How the results depend on the processing

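The 3 comparisons of tissues kept their counts of members within 1.5 times under each alternative. With a pseudocount of 0.1, DEGs among the members numbered 3 for muscle P2 against P1, 2 for muscle P3 against P2 and 0 for bone marrow P3 against P1, and without a filter muscle P3 against P2 had 3. With only the groups compared in the fit, muscle P3 against P1 had 6, and periosteum P2 against P1 and P3 against P2 had 0. Quantile normalization gave 1 for bone marrow P3 against P2. The CD105+ effect of Des between muscle and periosteum fell to 0 members with a pseudocount of 0.1, no filter, no trend or groups alone. Between muscle and bone marrow that effect gave 2 members with a pseudocount of 5 or groups alone, and 1 with rescaled totals, rescaled totals without globins or quantile normalization. Leaving out 1 library gave 2 to 4 members for muscle P2 against P1, 2 to 5 for muscle P3 against P2, and 0 to 2 for bone marrow P3 against P1 or against P2. It gave 0 to 1 for the CD105+ effect of muscle less periosteum and 0 to 2 for periosteum less bone marrow. The cause of these changes was not tested, and fits without a library or with groups alone also hold fewer libraries. The called values of Cspg4 for muscle against bone marrow and of Myh11 for periosteum against bone marrow also lost their calls, the first with a pseudocount of 0.1, the second with groups alone or without bone marrow P2 replicate 1, P3 replicate 2 or 3 or periosteum P3 replicate 1. Of 890 refits of 39 called values, 822 kept the call, 68 lost it and 0 turned the direction. Rescaling totals moved the median of all genes from 0.48 to 1.08 for muscle P3 against P2. Same-numbered libraries did not deviate together (mean r 0.000242 over 36 pairs of groups, 0 of them above 0.1), and the replicate block left 4 members for muscle P3 against P2 and moved no other count of the 15. Depth is known only as normalized totals, so low values near 0 have no counting error.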
